A study of Mus musculus with 33 samples.

Results

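The genes described here are 9 mouse genes whose products restrain bone morphogenetic protein (BMP) or related signals: Dand5, Grem1, Nbl1, Nog, Chrd, Chrdl1, Fst, Fstl3 and Bambi. They were chosen by name from the 47729 genes in the deposited tables, and all 9 of 9 were found and passed the filter on low counts. Total RNA was sequenced from retinal progenitor cells (RPC), the dividing cells of the immature retina, taken from C57BL/6J mouse retina at embryonic day 14. Each of 11 groups had 3 libraries, 33 in all. At day 0 the groups were untreated cells, cone primed cells given COCO protein and rod primed cells given taurine and retinoic acid. At days 5, 12, 21 and 35 there were cone cultures given COCO and rod cultures given taurine and retinoic acid. The labels do not say how long each agent stayed in the medium, and no later group was left untreated. They also do not say whether replicates were separate cultures or animals, so p-values measure the spread between these libraries, which may be technical.

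BMPs are secreted ligands that bind type I and type II receptors and act through Smad1, Smad5 and Smad9, whose well known targets include the Id genes. Secreted antagonists bind the ligands and keep them from the receptors, and several of them are themselves transcribed in response to BMP signalling. In the developing retina, BMPs and their antagonists are known for setting dorsal against ventral identity. COCO, the protein added to the cone cultures, is the product of Dand5, so Dand5 counts report the cells' own gene and not the added protein.

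Between 7511837 and 19166442 counts were assigned to genes in each library (median 12985662). At these depths the limit that a count of 0 allows, 3 counts, lay between 0.174 and 0.407 CPM (counts scaled to the TMM library size), for counting error only. Principal component 1 of all genes tested held 60.2% of the variance and separated early from late libraries. Within rod day 12, replicate 2 stood apart on that component, at -11.9 against 57.5 and 35.3 for replicates 1 and 3. The same library had a summed CPM of 1117 over 10 photoreceptor markers, against 83.9 and 166 in replicates 1 and 3. At cone day 12, replicate 2 also had the highest photoreceptor sum, 345 against 85.4 and 86.8 CPM. Its value on component 1 was the lowest of that group, 34.6 against 61.0 and 69.3. The labels cone and rod name the protocol. The photoreceptor sum was 686 to 956 CPM in untreated cells, 28.5 to 60.5 in cone and 28.5 to 32.5 at rod day 35. At day 35 the cone markers Arr3 and Opn1sw had group means of 0.0286 and 0 CPM in cone cultures, and the rod marker Nrl had a mean of 0.0566 CPM in rod cultures, all below the limit that 3 counts set. In bulk RNA, fewer cells of a type and less RNA per cell cannot be told apart. A gene was called in a comparison at a Benjamini-Hochberg adjusted p under 0.05 over the 18150 genes tested, from edgeR's quasi-likelihood test, and "rose" or "fell" is used only of called genes.

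On GRCm38, Grem1 (ENSMUSG00000074934) lies on the minus strand at chr2:113746164-113758646 and Dand5 (ENSMUSG00000053226) on the minus strand at chr8:84815405-84822823. The 250 bases before the RefSeq start of these genes are shown because Grem1 was the member that differed most between the cultures and Dand5 is the gene of the added protein. They are written 5′ to 3′ in the direction of transcription, from RefSeq on GRCm38.p6, at chr2:113758649-113758898 and chr8:84822824-84823073, and capitals mark the motif matches.
Grem1: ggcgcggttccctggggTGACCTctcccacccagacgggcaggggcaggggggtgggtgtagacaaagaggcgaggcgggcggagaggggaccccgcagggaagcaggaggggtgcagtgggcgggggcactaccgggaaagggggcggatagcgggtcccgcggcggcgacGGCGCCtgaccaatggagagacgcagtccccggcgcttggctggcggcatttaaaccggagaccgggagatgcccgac
Dand5: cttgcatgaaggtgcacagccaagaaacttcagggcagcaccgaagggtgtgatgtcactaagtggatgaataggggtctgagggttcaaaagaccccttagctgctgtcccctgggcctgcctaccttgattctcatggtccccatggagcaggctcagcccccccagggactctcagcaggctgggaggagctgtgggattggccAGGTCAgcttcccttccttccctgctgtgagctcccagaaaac
Of the 9 members, 5 had a promoter in the RefSeq table used here (Dand5, Grem1, Nbl1, Chrd and Fstl3). Both strands were searched for the SMAD motifs GTCTAGAC and GGCGCC, the retinoid receptor hexamer AGGTCA, the direct repeat of it known as DR5 and the TATA box TATAAA. The Grem1 window held GGCGCC, starting 78 bases before the start, and AGGTCA on the opposite strand, starting 233 bases before it. The Dand5 window held AGGTCA, 43 bases before the start, and none of the other motifs. GGCGCC was also present in the Nbl1 and Chrd windows. The Fstl3 window held AGGTCA and, 29 bases before the start, TATAAA, both on the opposite strand only. GGCGCC occurred in 9.59% of 32851 promoters of the same length, AGGTCA in 14.0% and TATAAA in 12.4%. GTCTAGAC, found in 0.167% of all promoters, and DR5, found in 0.00913%, were in none of the 5 windows. The GC content of the window was 72.0% for Grem1 and 58.0% for Dand5, against a median of 52.4% over all promoters.

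Grem1 encodes gremlin 1, a DAN family protein that binds BMP2, BMP4 and BMP7. It was the member that differed between the cultures at single days. At day 12 the cone libraries had 66.8, 47.5 and 77.8 CPM (573, 612 and 1006 counts), and the rod libraries had 6.14, 1.98 and 2.09 CPM (86, 29 and 29 counts). Every cone library lay above every rod library, and the difference was 4.23 ± 0.55 on the log2 scale (SE, n = 3 per group, edgeR adjusted p = 7.99e-06), an 18.8-fold higher level. Without rod day 12 replicate 1, the library at 6.14 CPM, the difference was 4.96. Over all fits with libraries left out it ran from 3.82 to 4.98. At this day 1 of 9 members was called, against 10.1% of all genes tested.

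At day 21 Grem1 stood at 154, 87.1 and 81.2 CPM in the cone libraries and at 26.7, 13.3 and 35.0 CPM in the rod libraries. The groups again did not overlap, with a log2 difference of 2.10 ± 0.47 (edgeR adjusted p = 0.00478), and Grem1 was the 1 member called beside 9.00% of all genes. With libraries left out the day 21 difference ran from 1.73 to 2.59. At day 35 the cone values were 97.2, 222 and 118 CPM and the rod values 9.01, 12.5 and 38.0 CPM. Again no rod library reached a cone library. The log2 difference was 2.86 ± 0.49 (edgeR adjusted p = 0.000210), and Grem1 was again the 1 member called, against 12.3% of all genes. Without rod day 35 replicate 3, the library at 38.0 CPM, the day 35 difference was 3.74. Over all fits with libraries left out it ran from 2.15 to 3.89.

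Before day 12 Grem1 was low in every group. Untreated cells had 0.767, 3.00 and 1.56 CPM, cone primed cells 0.378, 2.18 and 2.31 CPM, and rod primed cells 0.543, 0.806 and 0.988 CPM. Day 5 gave 2.87, 1.22 and 1.51 CPM in cone libraries and 1.91, 2.36 and 3.54 CPM in rod libraries. These 15 libraries overlapped between cone and rod at both days, with a log2 difference of 1.07 ± 0.88 at day 0 and -0.52 ± 0.64 at day 5. No member was called by edgeR at either day, where 7.27% and 9.28% of all genes were called. Without adjustment, 2 members at day 0 and 1 at day 5 had p under 0.05. When each comparison was fitted on its own 6 libraries, Chrdl1 was called at both days (adjusted p = 0.0364 and 0.0335).

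**Figure D1:**
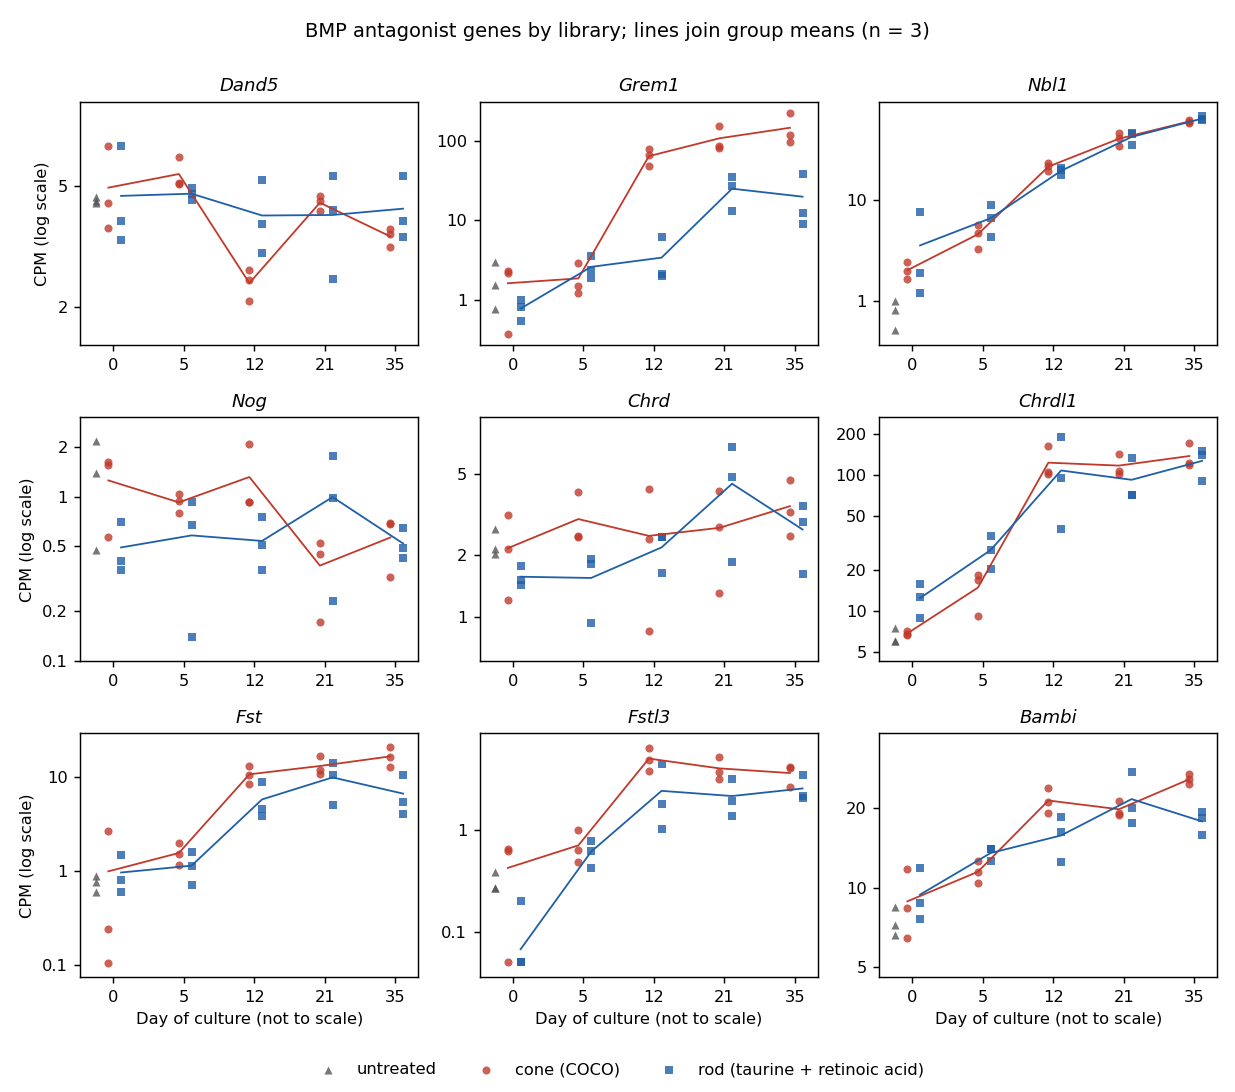
TMM-scaled CPM of the 9 genes (log axes, each panel with its own range) against day of culture (evenly spaced, not to scale) in untreated (grey triangles), cone (red circles) and rod (blue squares) libraries; each point is a library, lines join means of 3, and the 3 values of 0 counts for Fstl3 are drawn at 0.05. Grem1 parts into separate cone and rod ranges from day 12 on. Nbl1 overlaps at days 12, 21 and 35, and Chrdl1, higher in the rod libraries at days 0 and 5, overlaps from day 12 on.

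In order of mean level, Grem1 ran from rod primed (0.779 CPM) through cone primed, untreated, cone day 5 and rod day 5 to rod day 12 (3.40 CPM), and each neighbouring pair in that run had overlapping libraries. A gap without overlap followed to rod day 35 (19.8 CPM), which overlapped with rod day 21 (25.0 CPM). Above a further gap stood cone day 12 (64.0 CPM), all below cone day 21 (107 CPM) and cone day 35 (146 CPM), which overlapped.

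Within cone cultures, Grem1 rose between days 5 and 12 by 5.11 ± 0.58 on the log2 scale (edgeR adjusted p = 1.18e-07). The later cone steps were 0.74 ± 0.46 from day 12 to 21 (adjusted p = 0.407) and 0.44 ± 0.45 from day 21 to 35 (adjusted p = 0.719). In rod cultures the step from day 5 to 12 was 0.35 ± 0.60 (adjusted p = 0.741), and the rise came between days 12 and 21, by 2.88 ± 0.53 (adjusted p = 0.00139). That call was lost without replicate 3 of every group (2.30, adjusted p = 0.109) and when only the 6 libraries compared were fitted (2.85, adjusted p = 0.0847). The cone minus rod difference was larger at day 12 than at day 5 by 4.76 ± 0.83 (edgeR adjusted p = 0.00299), with 3.21% of all genes called in that contrast. These steps were compared after the levels had been seen. The planned F test of whether the cone minus rod difference changed over the 5 days called Grem1 alone among the members (adjusted p = 0.00451), against 9.22% of all genes. With replicate 2 or replicate 3 left out of all groups, leaving 2 libraries each, Grem1 was not called in that test (adjusted p up to 0.257), and the day 12 against day 5 contrast also reached 0.285. Measured from primed cells, the cone rise exceeded the rod rise by 3.16 ± 1.12 at day 12, which did not pass (edgeR adjusted p = 0.0881). No member passed in that contrast at days 5, 12, 21 or 35, where 0.562%, 6.61%, 4.39% and 5.66% of all genes were called, and 0, 2, 2 and 1 members had an unadjusted p under 0.05. The cone minus rod difference of Grem1 was at day 21 against day 12 changed by -2.14 ± 0.69, and at day 35 against day 21 by 0.77 ± 0.65, and neither passed (edgeR adjusted p = 0.157 and 1, against 0.430% and 0.00551% of all genes called).

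Against its own primed cells, Grem1 rose in cone cultures by 5.22 ± 0.61, 5.97 ± 0.62 and 6.41 ± 0.63 on the log2 scale at days 12, 21 and 35 (edgeR adjusted p = 7.86e-08, 7.38e-09 and 1.75e-09). In rod cultures the values were 2.07 ± 0.77, 4.94 ± 0.68 and 4.62 ± 0.69 (adjusted p = 0.0328, 1.15e-06 and 2.49e-06). The rod call at day 12 rested on few counts: it was lost without rod day 12 replicate 1, the library with 86 counts, and without any 1 of the rod primed libraries, with adjusted p up to 0.318 over all libraries left out. Without rod day 35 replicate 3 the rod rise at day 35 was 3.70.

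Mesenchyme and mural markers, of cell types other than retina, were also higher in late cultures. The summed CPM of 6 endothelium markers was lower there. It was 319 to 375 in untreated cells, 130 to 235 at cone day 35 and 41.6 to 107 at rod day 35. Only 4 of the 6 had a count in untreated cells, where Cdh5 and Tie1 had none, and 2 passed the filter on low counts. The sum is therefore not read as a level of endothelial cells. The summed CPM of 11 mesenchyme markers was 5.54 to 26.1 in untreated cells, 441 to 580 in cone and 199 to 306 in rod at day 12, and 810 to 4708 in cone and 494 to 1081 in rod at day 35. At day 12, 4 of the 10 tested were higher in cone (Col1a1, Col1a2, Twist1 and Prrx1) and 2 were lower (Pdgfra and Postn). The summed CPM of 7 mural and smooth muscle markers was 1296 to 2079 in cone and 226 to 816 in rod at day 12, with 4 of 7 called higher in cone (Acta2, Myh11, Des and Pdgfrb). At day 21, counting higher calls only, 3 of 10 mesenchyme, 0 of 7 mural and 4 of 6 microglia markers were called. By day 35 the mural sums were 1578 to 2099 and 778 to 1731, with 1 of 7 called higher. Microglia markers summed to 16.8 to 88.3 CPM in cone and 1.27 to 2.99 CPM in rod at day 35, with 6 of 6 tested called higher. Of all genes, 10.1%, 9.00% and 12.3% were called in either direction at days 12, 21 and 35. Those shares count both directions, so they are not a like measure for lists whose higher calls alone are given. Lower calls of the mesenchyme list at day 21, and its calls at day 35, are not given here.

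Within groups, the marker sums and Grem1 kept the same order in some groups and not in others. At cone day 12 the mural sums were 1296, 1348 and 2079 CPM in order of rising Grem1 (47.5, 66.8 and 77.8 CPM). At rod day 12 they were 226, 391 and 816 CPM in the same order (Grem1 at 1.98, 2.09 and 6.14 CPM). Rod day 35 also kept this order for the mural sum, while cone day 21, cone day 35 and rod day 21 did not. Among the cone day 35 libraries, replicate 2 had the highest Grem1, 222 CPM, and the lowest mesenchyme sum, 810 against 3737 and 4708. The library with the highest Grem1 also had the lowest mesenchyme sum at cone day 12 (441 CPM), rod day 12 (199 CPM) and rod day 35 (494 CPM). At cone day 21 it had the highest mesenchyme sum (1056 CPM), and at rod day 21 the middle one (565 CPM). From day 5 to 12 in rod cultures the mesenchyme sum went from 35.3 to 73.0 up to 199 to 306 CPM and the mural sum from 7.29 to 37.3 up to 226 to 816 CPM, while the Grem1 step of 0.35 ± 0.60 was not called. At day 5 the mural sum was 53.4 to 98.1 in cone and 7.29 to 37.3 in rod, while Grem1 overlapped. The part of these cells in the Grem1 difference was not tested.

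**Figure D2:**
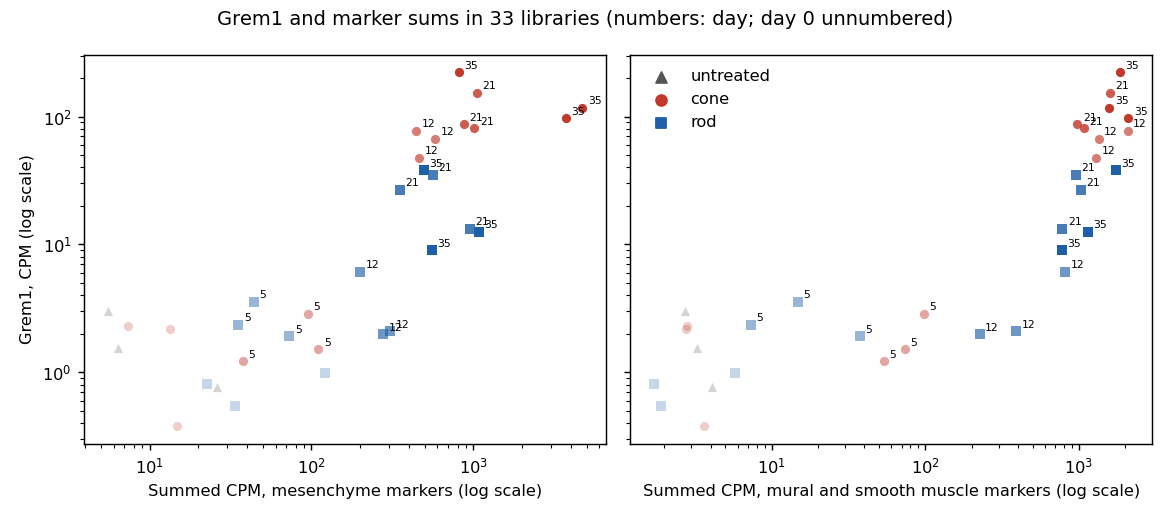
Grem1 CPM against the summed CPM of 11 mesenchyme markers (left) and 7 mural and smooth muscle markers (right) in the 33 libraries, log axes; triangles are untreated, circles cone and squares rod, darker with later day. The day 12 libraries of the cone cultures, with Grem1 between 47.5 and 77.8 CPM, lie above those of the rod cultures, between 1.98 and 6.14 CPM, and are also to their right in both panels.

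Dand5, the gene of COCO, is best known for its role in left-right asymmetry, where its product restrains Nodal. It was detected at a low level in all 33 libraries, between 21 and 103 counts. Untreated cells had 4.48, 4.40 and 4.62 CPM, cone primed cells 6.80, 3.64 and 4.40 CPM and rod primed cells 6.78, 3.83 and 3.32 CPM. The primed ranges enclosed the untreated libraries. The log2 change was 0.12 ± 0.28 for cone priming and 0.03 ± 0.28 for rod priming, and neither passed the test (edgeR adjusted p = 1 and 0.975).

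The departure in Dand5 was at cone day 12, with 2.45, 2.64 and 2.09 CPM after 5.08, 6.26 and 5.11 CPM at cone day 5. All 3 day 12 libraries lay below all cone day 5, cone day 21 and cone primed libraries. Dand5 fell from primed cells by 1.03 on the log2 scale (SE 0.29, edgeR adjusted p = 0.00441) and from day 5 by 1.20 (SE 0.28, adjusted p = 0.00124). With 2 libraries a group, after leaving out replicate 1 or replicate 3, the fall from primed cells was not called (adjusted p up to 0.0803), and without replicate 3 that from day 5 was not called either (adjusted p = 0.0558). Day 21 gave 4.46, 4.62 and 4.15 CPM, and the change from day 12 was 0.88 ± 0.29 (adjusted p = 0.0912). Day 35 gave 3.16, 3.61 and 3.47 CPM.

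Rod libraries held Dand5 at 3.00, 5.25 and 3.75 CPM at day 12, all above the cone libraries of that day. The log2 difference was -0.74 ± 0.29 and did not pass (edgeR adjusted p = 0.104). Without rod day 12 replicate 1 it did (-0.92, adjusted p = 0.0425). Over the mean of days 5 to 35 the difference was -0.18 ± 0.14 (adjusted p = 0.383). Apart from cone day 12, group means of Dand5 ran from 3.41 CPM (cone day 35) to 5.48 CPM (cone day 5), and each neighbouring pair in that order had overlapping libraries.

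Nbl1 encodes DAN, the protein that gave the family its name. It rose in both cultures along similar values. Untreated cells had 0.512, 1.00 and 0.815 CPM. Day 12 gave 23.2, 21.7 and 19.1 CPM in cone and 17.6, 19.7 and 20.8 CPM in rod. Day 35 gave 58.7, 62.3 and 58.1 CPM in cone and 61.1, 67.0 and 62.9 CPM in rod. The cone and rod ranges overlapped at both days, and the mean cone minus rod difference over days 5 to 35 was -0.13 ± 0.15 (edgeR adjusted p = 0.581).

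Nbl1 was the 1 member called after priming. Rod primed libraries had 1.90, 1.21 and 7.54 CPM (14, 12 and 84 counts), all above the untreated ones but far apart among themselves. The log2 change was 2.17 ± 0.46 (edgeR adjusted p = 0.00250), with 10.3% of all genes called (6.71% higher and 3.56% lower). The call rested on rod primed replicate 3: without it the change was 0.89 (adjusted p = 0.206). That library also had the highest mesenchyme sum of its group, 122 against 33.5 and 22.7 CPM. Cone primed libraries had 1.64, 2.43 and 1.99 CPM, also above the untreated ones, with a change of 1.32 ± 0.49. No member was called after cone priming, as no gene was (0.00% of all genes, edgeR), and 1 member had an unadjusted p under 0.05.

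From primed cells Nbl1 rose in cone cultures at every later day, by 1.15 ± 0.39, 3.37 ± 0.37, 4.28 ± 0.37 and 4.86 ± 0.38 on the log2 scale (largest edgeR adjusted p = 0.0321, at day 5, where leaving out any of 5 libraries raised it above the threshold). In rod cultures it rose by 2.39 ± 0.34, 3.50 ± 0.35 and 4.10 ± 0.35 at days 12, 21 and 35 (largest adjusted p = 3.71e-06), values measured from rod primed cells that include the library at 7.54 CPM. Without that library they were 3.66, 4.78 and 5.38, and the day 5 change, 0.81 ± 0.36 with all libraries and not called, became 2.09 (adjusted p = 6.73e-05).

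Noggin (Nog) and chordin (Chrd) are the classical organizer antagonists of BMP. Nog had 2 to 23 counts per library, near the detection limit, and was called in 1 planned comparison. Cone primed cells had 1.64, 0.566 and 1.57 CPM and cone day 21 cells 0.525, 0.171 and 0.444 CPM, below all primed libraries. The fall was 1.71 on the log2 scale (SE 0.69, edgeR adjusted p = 0.0391), over 4, 2 and 6 counts at day 21. It was lost with no filter on low counts, without cone primed replicate 1 or 3 and without cone day 21 replicate 2 or 3. Leaving any 1 replicate number out of every group also lost it (adjusted p up to 0.162 over all these fits).

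Chrd had 10 to 87 counts and group means between 1.55 CPM (rod day 5) and 4.47 CPM (rod day 21). At rod day 21 it had 1.85, 6.72 and 4.83 CPM against 1.76, 1.51 and 1.44 CPM in rod primed cells, close to touching at the lowest library. The rise was 1.51 ± 0.50 (edgeR adjusted p = 0.0136) and was lost without rod day 21 replicate 2 (adjusted p up to 0.187 over all libraries left out). At day 5 the cone libraries, at 4.08, 2.49 and 2.44 CPM, lay above the rod libraries, at 1.91, 0.929 and 1.81 CPM. The difference of 0.96 ± 0.49 did not pass (adjusted p = 0.245). On the opposite strand Chrd overlaps Thpo, which had 0 to 11 counts.

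Chrdl1, chordin-like 1 or ventroptin, is known from the ventral retina. It rose from 7.55, 6.00 and 6.04 CPM in untreated cells to 106, 102 and 163 CPM at cone day 12, and to 190, 40.2 and 95.02 CPM at rod day 12. Those rod libraries spread widely and enclosed the cone values. The library at 40.2 CPM is rod day 12 replicate 2, which stood apart over all genes. From primed cells the rise was 4.17 ± 0.43 in cone and 3.11 ± 0.40 in rod at day 12 (edgeR adjusted p = 8.26e-09 and 7.82e-07), and stayed between 2.89 and 4.33 at days 21 and 35. Without rod day 12 replicate 2 the rod rise was 3.47, and without replicate 1, the library at 190 CPM, it was 2.42. The cone minus rod difference at day 12 was 0.19 ± 0.36 and ran from -0.21 to 1.01 with libraries left out, never called.

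Before day 12, Chrdl1 was higher in rod in each library: cone primed 7.17, 6.63 and 6.81 CPM against rod primed 12.6, 8.87 and 16.0 CPM, and cone day 5 17.0, 18.5 and 9.18 CPM against rod day 5 35.9, 28.0 and 20.4 CPM. Neither difference passed over all libraries (-0.87 ± 0.43 and -0.91 ± 0.38, edgeR adjusted p = 0.250 and 0.141). Both passed when only those 6 libraries were fitted. Against primed cells, the rise of Chrdl1 at rod day 5 (1.16 ± 0.39, adjusted p = 0.0416) was lost without any 1 of 5 of its 6 libraries, while that at cone day 5 (1.12 ± 0.41, adjusted p = 0.0531) was gained with RLE scaling or DESeq2 (adjusted p = 0.0459 and 0.0155). The mean difference over days 5 to 35 was -0.06 ± 0.18 (adjusted p = 0.840).

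Follistatin (Fst) and follistatin-like 3 (Fstl3) bind activins most tightly and some BMPs. Fst was called beside Grem1 in cone minus rod over the mean of days 5 to 35, 2 of 9 members against 27.8% of all genes. At day 35 its cone libraries had 20.8, 16.3 and 12.8 CPM and its rod libraries 4.08, 5.50 and 10.5 CPM, without overlap, while at days 12 and 21 the groups overlapped. The mean difference of Fst was 0.75 ± 0.25 (edgeR adjusted p = 0.0258), and that of Grem1 was 2.17 ± 0.27 (adjusted p = 5.71e-07). The Fst call was lost without cone day 5 replicate 1 or rod day 5 replicate 2. It was also lost without replicate 2 or replicate 3 of every group (edgeR adjusted p up to 0.169 over all 4 fits). At day 35 alone its difference was 1.30 ± 0.47 (adjusted p = 0.0720), which passed without rod day 35 replicate 3 (1.78, adjusted p = 0.0375).

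Fst was at 0.767, 0.600 and 0.883 CPM in untreated cells and at 2.64, 0.243 and 0.105 CPM in cone primed cells, where replicate 1 had 21 counts and replicate 3 had 1. In cone cultures it rose from these by 3.57 ± 0.60, 3.86 ± 0.60 and 4.20 ± 0.60 at days 12, 21 and 35 (largest edgeR adjusted p = 1.71e-05). Without cone primed replicate 1 these rises were 5.77, 6.04 and 6.39, and the day 5 change of 0.79 ± 0.64 became 3.06 (adjusted p = 0.00503). In rod cultures Fst rose by 2.62 ± 0.60, 3.40 ± 0.59 and 2.84 ± 0.60 (largest adjusted p = 0.000914).

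Fstl3 was the least abundant member at day 0: untreated libraries had 3, 4 and 4 counts, cone primed libraries 5, 8 and 0, and rod primed libraries 0, 2 and 0. By day 12 it reached 3.85, 4.97 and 6.42 CPM in cone and 4.50, 1.02 and 1.80 CPM in rod (63, 15 and 25 counts). The rise in cone from primed cells was 3.54 ± 0.60 at day 12, 3.20 ± 0.60 at day 21 and 3.06 ± 0.60 at day 35 (largest edgeR adjusted p = 9.52e-05), and 2.94, 2.58 and 2.45 without cone primed replicate 3, the library at 0 counts. In rod, 103 counts at day 12 stood against 2 in primed cells, a ratio of 34.4 (95% exact interval on counting error 9.29 to 288), and the test called each later day (adjusted p between 1.01e-05 and 0.0359). Over the mean of days 5 to 35, Fstl3 was 0.67 ± 0.26 higher in cone and just missed the threshold (adjusted p = 0.0544). It passed with DESeq2 (0.69, adjusted p = 0.0213) and without rod day 12 replicate 1, the library with 63 counts (0.86, adjusted p = 0.00880). Without that library the day 12 difference, 1.06 ± 0.48 and not called over all libraries, was 1.84 (adjusted p = 0.0180). The rod day 5 call rested on 7, 6 and 9 counts and was lost without any 1 of 4 libraries. It was also lost without replicate 1 or replicate 3 of every group (adjusted p up to 0.265 over all these fits). Fstl3 overlaps Prss57 on the opposite strand, which had 0 to 2 counts.

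Bambi encodes a membrane protein that resembles a type I receptor but lacks the kinase domain, and it is itself a known target of BMP and Wnt signals. It was at 8.44, 6.60 and 7.20 CPM in untreated cells and at 24.6, 25.7 and 26.8 CPM at cone day 35, against 18.3, 15.8 and 19.2 CPM at rod day 35. All cone day 35 libraries lay above all rod ones, but the difference of 0.53 ± 0.18 did not pass (edgeR adjusted p = 0.0584). DESeq2, voom and the fit of the 6 libraries alone did call it (adjusted p = 0.0317, 0.0137 and 0.0402). Day 12 gave 23.8, 21.0 and 19.2 CPM in cone and 16.3, 12.5 and 18.5 CPM in rod, again without overlap, with a difference of 0.44 ± 0.18 (adjusted p = 0.143). Day 5 lay the other way, also without overlap, at 12.6, 10.4 and 11.4 CPM in cone and 13.9, 14.0 and 12.6 CPM in rod (-0.24 ± 0.19, adjusted p = 0.497). Day 21 gave 21.3, 19.2 and 18.9 CPM in cone and 20.0, 27.3 and 17.5 CPM in rod, which overlapped. From primed cells Bambi rose by 1.25 ± 0.19, 1.14 ± 0.19 and 1.52 ± 0.19 in cone (largest edgeR adjusted p = 1.62e-05). In rod it rose by 0.73 ± 0.19, 1.19 ± 0.19 and 0.91 ± 0.19 at the same 3 days (largest adjusted p = 0.00313), and the day 12 call was lost without replicate 1 of every group (adjusted p = 0.112).

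**Figure D3:**
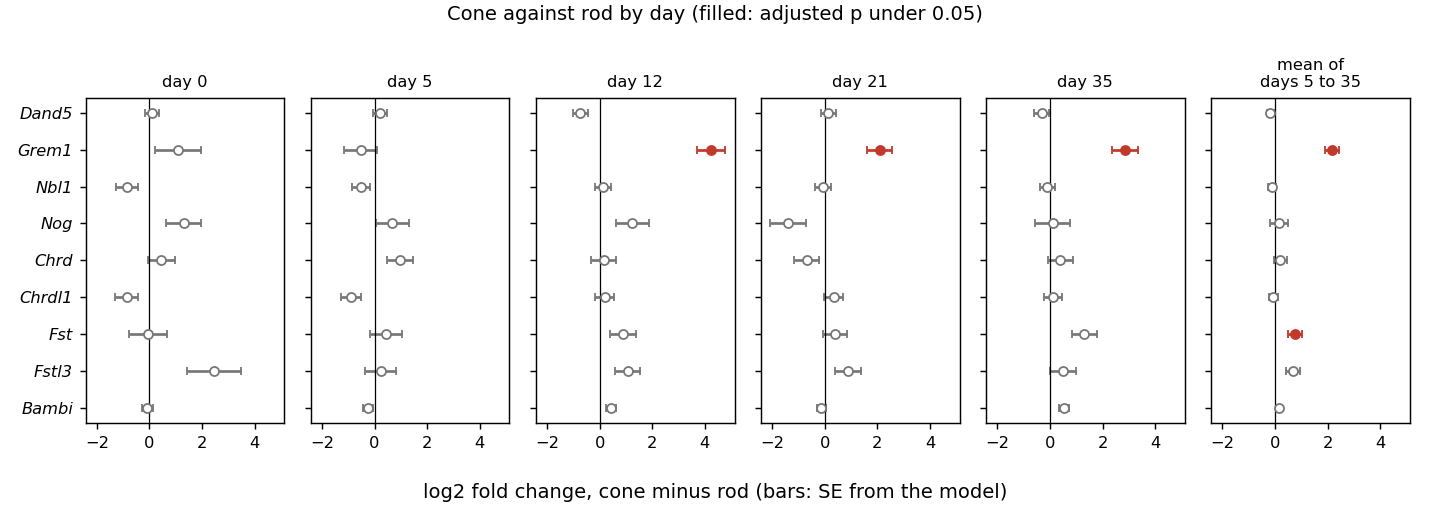
Log2 fold change of cone minus rod for the 9 genes in a panel for each of 5 days and a last panel for days 5 to 35 averaged; points are edgeR estimates, bars their SE, and filled red points have an adjusted p under 0.05. Filled points are those of Grem1 on days 12, 21 and 35, and those of Grem1 and Fst for the averaged days.

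Set together, 6 members (Grem1, Nbl1, Chrdl1, Fst, Fstl3 and Bambi) rose from primed cells at days 12, 21 and 35 in both cultures. In cone cultures 7 of 9 were called at day 12 (6 higher and 1 lower), against 48.4% of all genes (26.7% higher and 21.7% lower). The count was 7 of 9 at day 21 (6 higher and 1 lower, against 52.6% of all genes, 29.4% higher and 23.2% lower) and 6 of 9 at day 35 (all higher, against 57.7%, 31.1% higher and 26.5% lower). In rod cultures it was 6 of 9 at day 12 (42.4%), 7 of 9 at day 21 (50.8%) and 6 of 9 at day 35 (55.6%), all higher. Of all genes, 24.2%, 27.2% and 29.4% were higher and 18.2%, 23.6% and 26.2% lower at these days in rod cultures. At day 5 the count was 1 of 9 in cone (Nbl1, against 22.3%) and 2 of 9 in rod (Chrdl1 and Fstl3, against 17.5%). The comparisons of a culture with its primed cells share those primed libraries. The median log2 change of the 9 members was 3.37 in cone and 2.07 in rod at day 12, against 0.03 and 0.08 over all genes tested. Glial markers were higher in the same libraries: the sum of 7 Muller glia markers was 383 to 445 CPM in untreated cells, 3151 to 3719 at cone day 35 and 4390 to 5706 at rod day 35, and that of 4 astrocyte markers 0.600 to 1.36, 213 to 322 and 260 to 333 CPM. At day 12, 6 of 7 and 5 of 7 Muller glia markers and 4 of 4 astrocyte markers rose from primed cells in cone and rod. The part of glia in the rise of the members was not tested.

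Between neighbouring days, cone cultures had 7 of 9 members called from day 5 to 12 (43.2% of all genes), and rod cultures 4 of 9 (Nbl1, Chrdl1, Fst and Fstl3, against 18.3%). In rod, Fstl3 lost this call without rod day 5 replicate 2 or rod day 12 replicate 1 (adjusted p up to 0.204 over all leave-outs), and both Fstl3 and Chrdl1 lost it when only the 6 libraries were fitted (adjusted p = 0.0794 for Chrdl1). From day 12 to 21, 0 of 9 were called in cone (3.36% of all genes, edgeR, with 3 members at an unadjusted p under 0.05) and 2 of 9 in rod (Grem1 and Nbl1, against 11.2%). The Nbl1 call was lost without rod day 12 replicate 2 or rod day 21 replicate 3, and without any 1 replicate number in all groups (adjusted p up to 0.0952). From day 21 to 35, 0 of 9 were called in either culture (0.915% and 1.54% of all genes), with 1 member in each at an unadjusted p under 0.05.

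Levels between genes were compared per kilobase of annotated exon. In untreated cells Dand5 was the first of the 9 at 2.84 CPM per kb, ahead of Bambi at 1.46 and Chrdl1 at 0.966, and it held 37.7% of the summed level of the members. Dand5 was also first in cone primed, rod primed and cone day 5 cells. By cone day 35 the order was Grem1 at 35.1 CPM per kb, Nbl1 at 29.4 and Chrdl1 at 20.5, and the Dand5 share was 2.19%. At rod day 35 Nbl1 led at 31.3 CPM per kb, Chrdl1 followed at 18.9, and Grem1 came next at 4.78. The summed level of the 9 genes went from 7.53 ± 0.59 CPM per kb (SD, n = 3) in untreated cells to 98.2 ± 21.6 at cone day 35 and 64.4 ± 7.33 at rod day 35. Grem1 made up 35.7% of the first and 7.43% of the second.

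**Figure D4:**
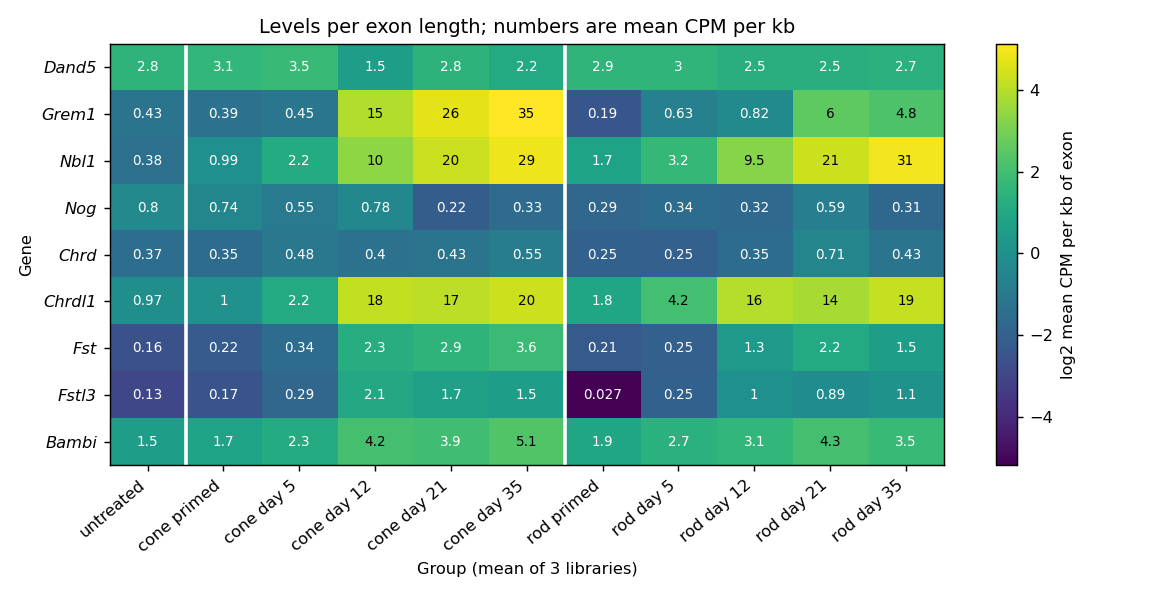
Mean CPM per kilobase of exon of each gene in each group (n = 3), written in the cells and coloured on a log2 scale; white lines part untreated, cone and rod groups. Dand5 stays between 1.5 and 3.5 in all groups, while Grem1 reaches 35 in cone day 35 and 4.8 in rod day 35.

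The genes most like each member were sought over the 33 libraries by Pearson r of log2 CPM among 11917 genes, values that describe libraries sharing day and culture. For Grem1 they were Impact (r = 0.967), Crim1 (r = 0.963), itself a membrane protein that binds BMPs, and Sema3d (r = 0.959), a secreted guidance factor. Nbl1 was most like Chmp4c (r = 0.979) and Chrdl1 most like Ptprj (r = 0.986). Fst was most like Il17rc (r = 0.959), Fstl3 like Sipa1l1 (r = 0.947) and Bambi like Lyn (r = 0.954). The 3 members that stayed low had weaker partners: Birc2 for Dand5 (r = 0.740), Sobp for Chrd (r = 0.752) and Alkbh4 for Nog (r = 0.624). Among the members themselves, Grem1 reached r = 0.846 with Bambi and 0.844 with Fst, and -0.489 with Dand5.

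The rest of the pathway was read over the mean of days 5 to 35, cone minus rod, where 15.6% of all genes were called higher and 12.2% lower. Of 14 other secreted antagonists and modulators tested, 5 were higher and 2 lower, with Crim1 at 1.08 ± 0.10 and Fstl4 at -2.10 ± 0.26 on the log2 scale. Among 7 BMP ligands tested, 5 were higher and 1 lower: Bmp3 was at 1.64 ± 0.18 and Bmp2, which fell on the other side, at -2.78 ± 0.17. Activin class ligands divided, with Inhbb at 1.71 ± 0.21 and Gdf11 at -0.46 ± 0.07 among 4 tested.

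Of the receptors 3 of 6 were lower, including Bmpr2 (-0.26 ± 0.04) and Acvr1 (-0.28 ± 0.07), and of the Smads 2 of 4, Smad9 (-1.77 ± 0.19) and Smad1 (-0.24 ± 0.06). Among 9 BMP target genes, 5 were lower in cone and none higher, with a median of -0.54 against 0.01 over all genes: Atoh8 (-1.41 ± 0.12), Id2 (-1.13 ± 0.13), and Id3, Smad6 and Msx2, these 3 named after their values were seen. After rod priming, 4 of the 9 targets rose (Id1, Id2, Smad6 and Atoh8) in the comparison that called Nbl1 alone among the members and 6.71% of all genes higher.

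Marker genes of other cells were also called in cone minus rod over the mean of days 5 to 35. Higher and lower calls numbered 5 and 3 of 10 mesenchyme, 5 and 0 of 7 mural, 6 and 0 of 6 microglia, 2 and 0 of 2 endothelium, 3 and 1 of 4 pigment epithelium and 3 and 1 of 5 lens markers. Among retinal lists they were 1 and 6 of 12 progenitor, 2 and 0 of 10 photoreceptor, 1 and 3 of 7 Muller glia, 1 and 1 of 4 astrocyte, 1 and 1 of 6 ganglion cell, 1 and 3 of 8 amacrine and horizontal, and 0 and 1 of 5 bipolar cell markers. Of 6 cell cycle genes 4 were lower. Their part in the differences of the members was not tested.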

How the data were processed

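Total RNA from 33 libraries in 11 groups of 3 was analysed. Raw read counts per gene, with no scaling, are what the authors deposited in the count tables, and the summary lines that name no gene were left out (genes held 26.9% to 34.9% of all counted reads). Per the file headers, the authors also provided coverage (a signal per base), FPKM and TPM for each gene. The submitters' processing notes name HISAT2, StringTie, HTSeq and GRCm38 without versions or settings, and the strand setting of the counting is not given in the sources used here. Of 297 deposited TPM values of the members, 240 were listed at 0, and 198 of these had 10 or more counts. TPM therefore served only as an alternative (log2 with a pseudocount of 1), levels between genes were set per kilobase of GENCODE M21 exon from counts, a change from the plan to use TPM, and FPKM and coverage were not used.

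The filter for low counts (filterByExpr of edgeR, minimum 10, by group) kept 18150 of the 32488 genes that had a count. TMM scaling was followed by a fit of all libraries in 1 quasi-likelihood model without robust dispersion (edgeR 4.0.16, limma 3.58.1, R 4.3.3). The common biological coefficient of variation was 0.213. Error terms on log2 fold changes are SE from the model. Replicate pairs differed by more than sampling noise in all 33 pairs. Reads carry no molecular identifiers in the counts, so floors and intervals cover counting error only. There were 17 planned comparisons, and 13 were added after the levels were seen (steps between neighbouring days and differences between the cultures' changes). The labels name no batch, so no values within batches could be given.

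The members, the pathway lists (antagonists, ligands, receptors, Smads and targets of BMP) and the lists of cell type and cell cycle markers were chosen with earlier results of these data known. The 9 members are always named, with the 2 genes of each pathway list that had the smallest p over the mean of days, and for each member the most similar of 3 genes by Pearson r of log2 CPM (prior count 2, mean of at least 1), all 3 for Grem1. Alternatives were other scalings, filters and dispersion, DESeq2 1.42.0, voom, only the libraries compared, a replicate block and leaving out libraries. The steps were tested on simulated counts in which only cone day 12 was changed. Of 100 genes changed 2-fold, 67% were called in cone minus rod at day 12 and 49% in the change with day. Of 100 genes changed 4-fold, these shares were 93% and 81%. At day 12, 11 unchanged genes were called. A member that was not called can therefore still differ by 2-fold.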

Additional observations from a re-analysis of the deposited data

Results flagged for a closer look

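The cone minus rod difference of Grem1 was not the same at all days (edgeR F test over days 0, 5, 12, 21 and 35, adjusted p = 0.00451). On the log2 scale it was 1.07 ± 0.88 in primed cells and -0.52 ± 0.64 on day 5. It reached 4.23 ± 0.55 on day 12, with 2.10 ± 0.47 and 2.86 ± 0.49 on days 21 and 35. In 2 of the 3 fits that left a replicate number out of all groups, the change with day was not called (adjusted p up to 0.257).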

How the results depend on the processing

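Of 49 called results of single members in the planned comparisons, 38 kept their call and direction under every count-based alternative, and 11 lost the call under at least 1. Of 14 called in the comparisons added later, 8 were kept and 6 lost the call under at least 1. No called result reversed under these. The 4 calls of Grem1 in cone minus rod (days 12, 21, 35 and their mean with day 5) were kept in all of these (largest adjusted p 0.0441, at day 21 without replicate 1). On the deposited TPM 4 of 49 calls were kept, where most member values are listed at 0: calls of cone minus rod at 5 days went from 3 of 45 to 1, over the mean of days from 2 of 9 to 1, after priming from 1 of 18 to 0, at later days against primed cells from 42 of 72 to 2, and for the change with day from 1 of 9 to 0. With voom the calls at 5 days were 7 and after priming 0. With only the libraries compared, the calls at 5 days were 6. With libraries left out, calls ran from 3 to 5 at 5 days, from 1 to 3 over the mean of days, from 36 to 42 at later days, from 0 to 1 after priming and from 0 to 2 for the change with day, where Bambi was gained without cone primed replicate 2 and Chrdl1 without rod day 12 replicate 1 (adjusted p = 0.0398 and 0.0288). Upper quartile scaling moved the median of all genes by -0.15 in cone day 35 against primed, where Dand5, not called otherwise, was called lower (-0.68, adjusted p = 0.0390).

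Replicate numbers did not pair the libraries in general. Over 45 pairs of same-numbered libraries, within and between days, the correlation of deviations ran from -0.226 to 0.513 with a median of -0.0048. Of these pairs, 13 correlated best with their own number. Between cone and rod it was 0.513 for replicate 2 at day 12, and -0.163, -0.226 and -0.0820 for replicates 1, 2 and 3 at day 35. A median over pairs of different days cannot exclude pairing within 1 day. With the replicate number as a block, all 49 calls were kept. Calls gained were Fst at day 35 (adjusted p = 0.0465), Fstl3 over the mean of days (0.0283) and Chrdl1 at cone day 5 against primed (0.0378). Depth limited Nog, with 2 to 23 counts, and Fstl3 and Fst at day 0.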
